A study of Mus musculus with 23 samples.

Results

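Runx1, Runx2, Runx3 and Cbfb encode the subunits of the core binding factor, and each has 1 window in a count of captured methylated DNA at mouse gene starts. The members are these 4 genes, taken by symbol from 41388 windows. Runx3 was picked for its high capture in spleen against heart, so its values in that contrast are a description, and the other genes were added as members of the same complex.

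Runx proteins share the Runt domain, which binds DNA, and pair with Cbfb, which does not touch DNA itself but makes the pairing with DNA firmer and protects the Runx partner from breakdown. Runx1 is needed for the first blood stem cells and for platelets and lymphocytes, Runx2 for osteoblasts and bone, and Runx3 for cytotoxic T cells, natural killer cells and sensory neurons. Each Runx gene is read from a distal and a proximal promoter, and CpG methylation at a promoter often goes with low use of that promoter, while methylation inside a gene does not have one fixed relation to its use.

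Spleen DNA came from mice on a diet rich in resistant starch, here called high fibre (4 libraries), from mice given 100 mM magnesium acetate to drink (4) and from mice on a control diet without resistant starch (4). Heart DNA, from the left ventricle, came from 4 high fibre, 3 acetate and 4 control libraries. All were male C57Bl/6 mice, housed singly, which received their diets from 3 weeks before minipump surgery; what the pumps held, the mice's age and whether each library was a separate mouse are not stated in the labels, so p-values measure the spread between libraries. MethylMiner, a methyl-CpG binding protein on beads, captured sonicated DNA, so reads in a window reflect methylated CpG sites and how many CpG sites there are, not a methylation percentage. These are whole tissues, and a change in the mix of cells cannot be told apart from a change of methylation within a cell.

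Library totals were 4.36 to 9.87 M (mega) reads in 12 spleen libraries and 4.12 to 8.60 M in 11 heart libraries. One satellite-like window, Gm10800, took 17.3 to 21.3% of the reads in high fibre heart, 22.1 to 42.4% in acetate heart and 36.8 to 50% in control heart. In spleen its share averaged 55.8% ± 4.71 on high fibre, 51.9% ± 2.71 on acetate and 55.8% ± 2.86 on control (SD, n = 4 each). Levels are normalised read counts per M reads (CPM), scaled with edgeR's TMM factors either over both tissues or within 1 tissue, as stated.

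The RefSeq promoters of the genes show how unevenly CpG sites, the targets of the capture, are spread. The promoters are given on build GRCm38.p6, each as the 250 bases before the transcription start on the gene's own strand, with CpG sites in capitals. Runx3 lies on the plus strand and is shown with its distal (chr4:135120395-135120644) and proximal (chr4:135152295-135152544) promoters, Runx2 lies on the minus strand (chr17:44814628-44814877), and Cbfb lies on the plus strand (chr8:105170424-105170673).
Runx3 distal: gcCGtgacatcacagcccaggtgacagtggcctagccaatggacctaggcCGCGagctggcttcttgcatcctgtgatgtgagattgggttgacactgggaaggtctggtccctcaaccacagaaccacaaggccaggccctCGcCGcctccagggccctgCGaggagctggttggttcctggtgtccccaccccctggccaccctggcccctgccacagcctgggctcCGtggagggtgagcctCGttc
Runx3 proximal: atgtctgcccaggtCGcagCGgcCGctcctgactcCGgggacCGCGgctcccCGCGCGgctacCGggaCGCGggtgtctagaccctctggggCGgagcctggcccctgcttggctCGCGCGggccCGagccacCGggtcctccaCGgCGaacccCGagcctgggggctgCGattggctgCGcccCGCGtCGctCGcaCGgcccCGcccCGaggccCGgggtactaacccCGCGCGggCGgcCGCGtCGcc
Runx2: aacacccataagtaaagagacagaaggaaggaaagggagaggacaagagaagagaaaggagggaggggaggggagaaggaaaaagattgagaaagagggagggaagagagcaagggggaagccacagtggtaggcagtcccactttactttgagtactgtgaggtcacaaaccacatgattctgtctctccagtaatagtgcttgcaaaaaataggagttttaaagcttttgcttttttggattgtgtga
Cbfb: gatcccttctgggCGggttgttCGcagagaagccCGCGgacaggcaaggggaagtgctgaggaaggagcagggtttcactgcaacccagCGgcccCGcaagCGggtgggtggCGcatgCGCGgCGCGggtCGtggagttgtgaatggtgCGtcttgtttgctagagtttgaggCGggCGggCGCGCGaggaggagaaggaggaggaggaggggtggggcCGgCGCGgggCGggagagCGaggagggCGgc

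Counted over 300 bases, from 250 before to 50 after the start, the distal Runx3 promoter held 8 CpG sites and the proximal one 45, more than 98.1% of 32851 RefSeq mouse promoters of that length. The Runx1 promoters held 2 (distal) and 35 (proximal) sites, the Runx2 promoter 2 and the Cbfb promoter 30, against a median of 7 over all promoters. Only 1 Runx2 promoter is listed, so the other promoter of Runx2 was not counted. In Runx1 and Runx3 the proximal promoter was thus the one dense in CpG sites, the distal Runx3 promoter held about the median number and the distal Runx1 promoter fewer, and which of them the counted windows cover is not stated in the sources used here. The genes span chr16:92601466-92826074 (Runx1, ENSMUSG00000022952), chr17:44495987-44814797 (Runx2, ENSMUSG00000039153), chr4:135120645-135177990 (Runx3, ENSMUSG00000070691) and chr8:105170674-105217989 (Cbfb, ENSMUSG00000031885).

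The core Runx binding motif TGTGGT, searched on both strands, was in 16.8% of all promoters. It occurred 2 times in the distal Runx1 promoter, 3 times in the listed Runx2 promoter and 2 times in the distal Runx3 promoter. It was absent from the proximal promoters of Runx1 and Runx3 and from that of Cbfb. A tandem pair of its reverse complement, ACCACAGAACCACA, which holds 2 of these matches, was found in 4 of 32851 promoters: distal Runx1, Runx2, distal Runx3 and Gm16225, whose promoter shares DNA with that of Runx3. The searched string was taken from the distal Runx3 promoter, so its presence there and in Gm16225 was set in advance. Outside that DNA it was found only at Runx1 and Runx2. The 3 Runx sites are shown with 8 bases on either side and the tandem pair in capitals, on the strand of each gene.
Runx1 distal (chr16:92826025-92826054, minus strand): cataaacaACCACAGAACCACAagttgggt
Runx2 (chr17:44814583-44814612, minus strand): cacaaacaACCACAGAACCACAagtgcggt
Runx3 distal (chr4:135120503-135120532, plus strand): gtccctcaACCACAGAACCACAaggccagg

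Spleen held far more captured DNA than heart at Runx3 and Runx1 and less at Runx2, while Cbfb lay in overlapping ranges in both tissues. The contrast chose Runx3, so no test is given for any of the genes, and levels are CPM scaled over both tissues. In control spleen Runx3 had 93.2, 45.8, 63.6 and 53.8 CPM, against 7.46, 6.78, 8.10 and 7.07 CPM in control heart. High fibre spleen had 77.4, 58.2, 58.5 and 59.95 CPM, against 9.23, 7.86, 8.09 and 8.89 CPM in high fibre heart. Acetate spleen had 56.6, 46.2, 45.0 and 79.7 CPM, against 7.45, 9.56 and 8.74 CPM in acetate heart. The lowest spleen library thus lay above the highest heart library on every diet. The log2 fold change of spleen over heart was 2.86 ± 0.19 (SE) on high fibre, 2.68 ± 0.21 on acetate and 3.07 ± 0.19 on control, the last an 8.39-fold difference. Ordered by mean, Runx3 ran through control spleen (64.1 CPM), high fibre spleen (63.5 CPM), acetate spleen (56.9 CPM), acetate heart (8.58 CPM), high fibre heart (8.52 CPM) and control heart (7.35 CPM), and neighbours in this order differed by less than their SD except at the step from spleen to heart and between high fibre and control heart.

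Runx1, the blood stem cell factor, ranged from 61.8 to 121.7 CPM in spleen with a median of 75.1, and from 22.7 to 25.9 CPM in heart with a median of 24.7. The ranges were apart, and the heart libraries lay close together, with a SD of 1.03 CPM around 24.6 CPM (n = 11) against a SD of 18.3 CPM around 82.7 CPM in spleen (n = 12). The log2 fold change was 1.75 ± 0.16 on high fibre, 1.70 ± 0.18 on acetate and 1.76 ± 0.16 on control, so the 3 diets gave values within 1 SE of each other.

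Runx2, the osteoblast factor, went the other way. Its level ranged from 1.17 to 8.93 CPM in spleen with a median of 3.68, and from 8.63 to 17.8 CPM in heart with a median of 14.7. The ranges touched, since the third high fibre spleen library lay above the first acetate heart library. The log2 fold change was -1.67 ± 0.29 on high fibre, -1.63 ± 0.32 on acetate and -1.67 ± 0.30 on control, on 5 to 36 reads per spleen library and 44 to 165 per heart library. Cbfb, the shared partner, ranged from 2.95 to 6.94 CPM in spleen and from 2.65 to 7.53 CPM in heart, with log2 fold changes of 0.21 ± 0.27 on high fibre (-0.075 without high fibre spleen replicate 3), -0.79 ± 0.28 on acetate and -0.19 ± 0.25 on control.

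**Figure D1:**
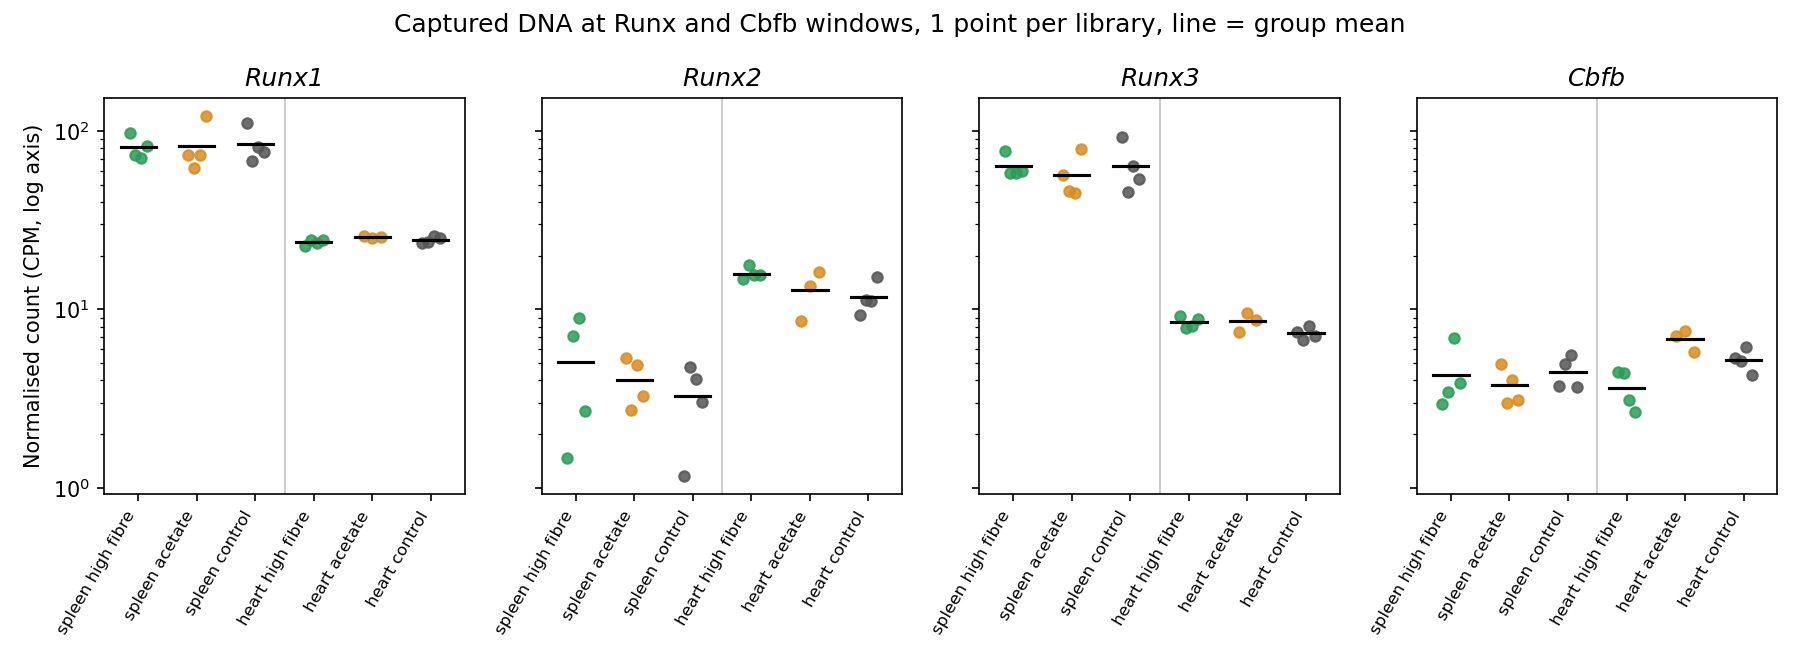
Normalised read counts (CPM scaled over both tissues, log axis) of the 4 windows in each of 23 libraries, grouped by tissue and diet, with a line at each group mean. Runx1 and Runx3 lie in separate bands, spleen above heart, Runx2 lies lower in spleen with ranges that touch, and Cbfb lies between 2.65 and 7.53 CPM in both tissues.

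The members' ranges did not overlap between all spleen and all heart libraries for 2 of 4 genes, Runx1 and Runx3; 32.5% of 33982 windows had ranges apart, and nothing is read from the count since the contrast chose Runx3. The median window had a log2 fold change of -0.236 on high fibre, -0.195 on acetate and -0.192 on control, so Runx3 and Runx1 stood above and Runx2 below the middle of all windows. On control diet, 100% of windows after rounding had a smaller fold change than Runx3, 98.5% smaller than Runx1, 50% smaller than Cbfb and 13.8% smaller than Runx2. The Runx2 value was thus shared by many windows, and Runx3 was near the end of the distribution. With library totals in place of TMM factors the spleen over heart values fell, to 0.17 for Runx1 and 1.29 for Runx3 on high fibre, where the median of all windows became -1.77, so each value is relative to the bulk of windows.

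**Figure D2:**
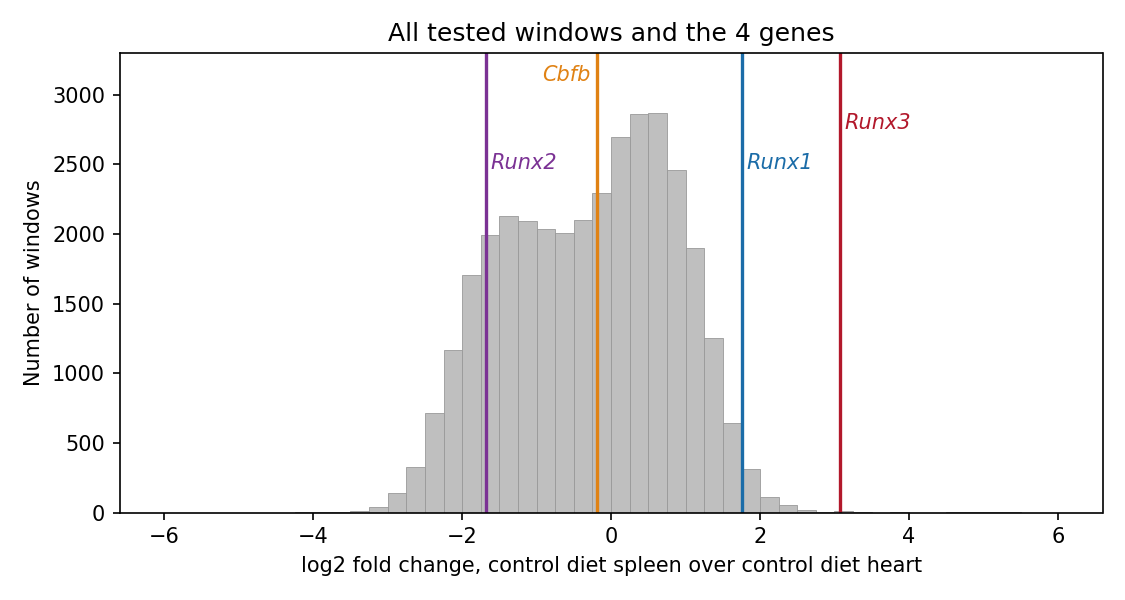
Number of windows by log2 fold change of control spleen over control heart, with lines at the 4 genes. Runx3 (3.07) lies at the far right edge and Runx1 (1.76) on the right flank, Cbfb (-0.19) near the median of -0.192, and Runx2 (-1.67) on the left.

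Markers of the tissues' cells give a measure of the capture at other gene starts, with CPM scaled over both tissues and summed over a list. Cardiomyocyte gene windows held 544 to 785 CPM in spleen and 262 to 338 CPM in heart (14 of 14 genes tested). Lymphocyte gene windows held 122 to 161 CPM in spleen and 169 to 230 CPM in heart (14 of 14). Myeloid windows held 101 to 122 CPM in spleen and 103 to 165 CPM in heart (8 of 10), endothelial windows 236 to 309 CPM in spleen and 192 to 250 CPM in heart (10 of 10), and erythroid windows 95.9 to 153 CPM in spleen and 72.4 to 95.1 CPM in heart (9 of 10). Summed capture was thus higher in spleen at the cardiomyocyte and erythroid lists and higher in heart at the lymphocyte list. Ranges were apart in these 3, narrowly for the erythroid list, and the ranges of the other lists overlapped. The erythroid sum did not hold gene by gene. Of 9 erythroid windows, 4 had a positive log2 fold change of spleen over heart on high fibre, 4 on acetate and 3 on control. Their medians were -0.437, -0.124 and -0.081 in that order, beside -0.236, -0.195 and -0.192 over all windows. The part of the cell mix in the Runx values was not tested.

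Some of the nearest windows had the tissue pattern of the member and others did not, and their distances differed widely. Clic6 lay 60225 bases and Mir802 543646 bases from Runx1. Clic5 lay 215818 and Cdc5l 577090 bases from Runx2, and Clic4 35979 bases from Runx3. Ces4a lay 20565 and D230025D16Rik 7157 bases from Cbfb. Near Runx3, Gm16225, a noncoding gene read away from the distal promoter, had 0 to 3 reads in spleen libraries and 0 to 4 in heart libraries. It lies 269 bases from Runx3. How reads in overlapping windows were counted is not given, so the Gm16225 counts cannot be read as little capture there. On the other side Clic4, an intracellular channel gene, had 6.40 ± 1.81 CPM in spleen and 5.25 ± 1.37 CPM in heart. Near Runx1, Clic6, another gene of that channel family, had 38.6 ± 3.32 CPM in spleen and 33.2 ± 4.78 CPM in heart, with overlapping ranges. On the other side of Runx1 the window of the microRNA gene Mir802 had 61.0 ± 7.30 CPM in spleen and 27.0 ± 4.68 CPM in heart. Its ranges were apart, as they were for 32.5% of all windows, and in the direction of Runx1. The neighbours of Runx2 were Clic5, again of the channel family, with 23.01 ± 2.60 CPM in spleen and 7.01 ± 0.88 CPM in heart, against the direction of Runx2, and the splicing factor gene Cdc5l, with 1.16 ± 0.603 CPM in spleen and 1.59 ± 0.812 CPM in heart. At Runx2, Supt3, a gene of the SAGA transcription complex that overlaps it, had 2.99 ± 1.48 CPM in spleen and 15.8 ± 3.65 CPM in heart, in the direction of Runx2. Of the opposite-strand windows, Runx2os2 had 9.90 ± 3.25 CPM in spleen and 15.4 ± 1.96 CPM in heart, also in that direction, whereas Runx2os3 had 26.7 ± 2.86 CPM in spleen and 19.2 ± 3.65 CPM in heart. Runx2os1 had 0 reads in every library, which, as at Gm16225, cannot be read as little capture. Beside Cbfb, the esterase gene Ces4a had 8.10 ± 1.84 CPM in spleen and 10.9 ± 1.601 CPM in heart, and D230025D16Rik had 27.6 ± 2.69 CPM in spleen and 28.5 ± 3.45 CPM in heart (SD, n = 12 and 11 throughout).

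Pearson correlation of log2 CPM over all 23 libraries was ranked among 10954 windows above the median level. Windows with placeholder symbols such as Gm or Rik numbers, microRNA genes and duplicated symbols were left out of these. Among them Runx3 was followed most closely by Gfi1, a zinc finger repressor of blood cells (r = 0.994), Itpripl2 (0.990) and Runx1 (0.990). Runx1 was followed by Itpripl2 (0.996), Taf7l, a testis-associated transcription factor subunit (0.990) and Runx3. Runx2 was followed by Ndufa10, a respiratory chain subunit (0.951), Fam135a (0.944) and Snapc3 (0.942). The spleen and heart libraries form separate groups, and these values carry no test. Within heart the r of Runx3 with Itpripl2 was -0.510, and with Gfi1 0.666, on 11 libraries.

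Among the spleen libraries alone, Runx1 and Runx3 went up and down together. On the scale of 1 tissue, acetate library 4 had 78.5 CPM at Runx1 and 51.4 CPM at Runx3, control library 1 had 72.0 and 60.2 CPM, and high fibre library 1 had 63.1 and 49.9 CPM. The next highest library had 55.4 CPM at Runx1 and another had 43.1 CPM at Runx3, so these 3 libraries, 1 of each diet, were the highest at both genes. Pearson's r of log2 CPM was 0.86 (permutation p = 0.00043, adjusted over 12 relations 0.00516) and Spearman's rho 0.75 (permutation p = 0.00667) over 12 libraries, two-sided. Without the 2 libraries farthest from the Runx1 median r was 0.77, and after removing the mean of each diet it was 0.90. The other spleen pairs gave -0.61 for Runx1 with Runx2, -0.59 for Runx2 with Runx3 and 0.68 for Runx2 with Cbfb. Runx1 with Cbfb gave -0.49 and Runx3 with Cbfb -0.33. Their adjusted permutation p ran from 0.0924 to 0.391. In heart, over 11 libraries, r of Runx1 with Runx3 was -0.04 (permutation p = 0.91). The 3 libraries also had the highest summed levels at 3 of the 5 marker lists, scaled over both tissues and in the order above. The sums were 148.6, 152.8 and 149.6 CPM at erythroid markers (next 123.2), 286.2, 303.8 and 309.1 CPM at endothelial markers (next 281.1), and 160.5, 157.7 and 144.6 CPM at lymphocyte markers (next 143.4). At cardiomyocyte markers they were among the highest 4, with 685.7, 785.2 and 740.8 CPM, and at myeloid markers they were not the highest (114.8, 105.8 and 108 CPM, in a range of 101.4 to 121.9). The part of this in the relation was not tested. Of 24870 other spleen windows, 2.77% followed Runx1 at least as closely, and 5.48% of those above the median level, so many other windows did the same.

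**Figure D3:**
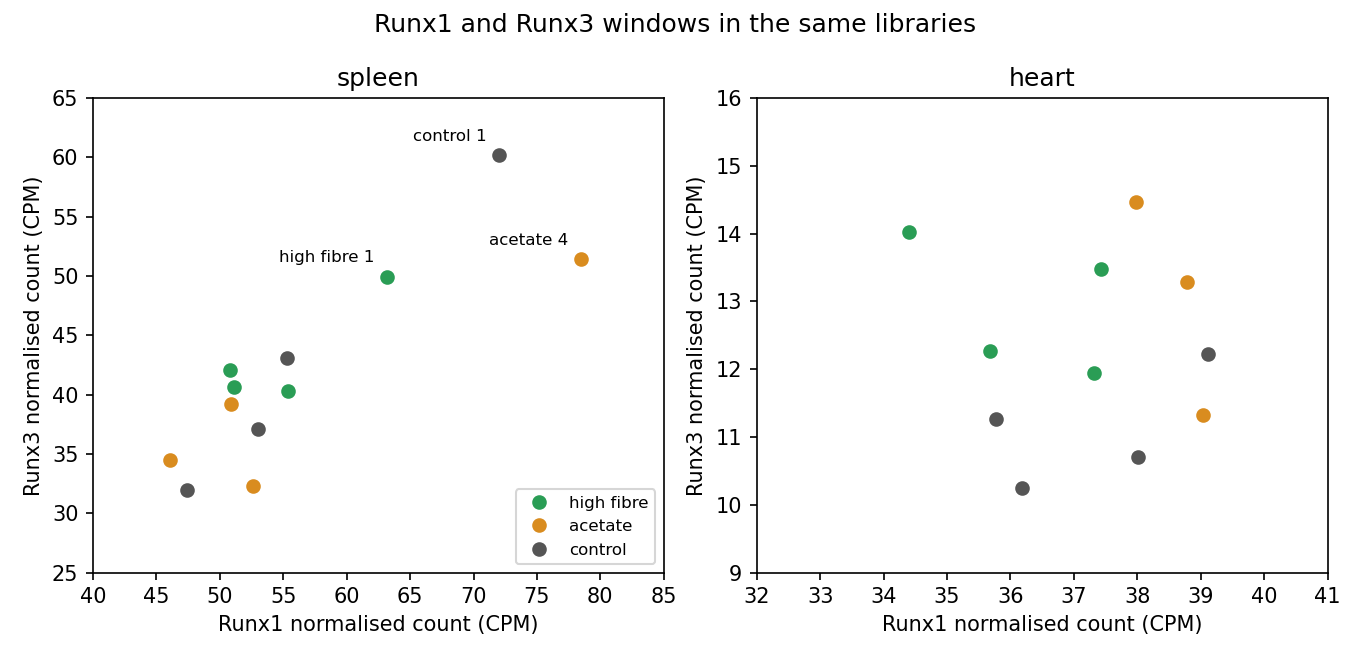
Runx3 against Runx1 normalised read counts (CPM scaled within a tissue, linear axes that do not start at 0), 1 point per library, coloured by diet, in spleen and heart. In spleen 3 labelled libraries, 1 of each diet, are highest at both genes (r = 0.86 on log2 CPM, 12 libraries), and in heart the points show no line (r = -0.04, 11 libraries).

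In heart, high fibre went with more capture at Runx2 than the control diet. CPM scaled within heart were 22.4, 27.0, 23.5 and 23.7 in high fibre heart, against 14.0, 17.02, 16.9 and 22.9 in control heart. Most high fibre libraries lay above all control libraries, but the fourth control library lay above the lowest high fibre one. The log2 fold change was 0.45 ± 0.16 (1.36-fold), with an adjusted p of 0.0394 in edgeR's quasi-likelihood test. This was 1 of 4 members, where 26.2% of 33562 windows were called, so the share of members was close to that of all windows. The call was lost with 1 surrogate variable (0.04, adjusted p = 0.949), with DESeq2 (adjusted p = 0.0549), and without any 1 of control replicates 1, 2 and 3 or of the 4 high fibre replicates, with values from 0.34 without control replicate 1 to 0.59 without control replicate 4, which kept it.

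The share of reads in Gm10800 also differed between the heart diets. In acetate heart, library 1 had 42.4% of reads in Gm10800 and 13.1 CPM at Runx2, library 2 had 37.0% and 20.6 CPM, and library 3 had 22.1% and 24.7 CPM, so Runx2 was higher where the share was smaller. Within control heart there was no such order, with 43.1% and 14.0 CPM in library 1, 36.8% and 17.02 CPM in library 2, 50% and 16.9 CPM in library 3, and 39.1% and 22.9 CPM in library 4. The high fibre libraries had the smallest shares of all, 19.3%, 17.3%, 21.3% and 18.2%. Its part in the diet difference was not tested. Acetate against control gave 0.19 ± 0.18 at Runx2, and high fibre against acetate 0.26 ± 0.17, neither past the threshold. Of the windows that overlap Runx2, Supt3 was called higher in high fibre heart than in control heart (0.58, adjusted p = 0.0069 in edgeR), and Runx2os3 gave -0.23 (adjusted p = 0.214).

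Cbfb was lower in high fibre heart than in acetate heart. CPM were 6.74, 6.70, 4.71 and 4.02 in high fibre heart, against 10.7, 11.4 and 8.81 in acetate heart, and the ranges were apart, as they were for 21.4% of windows. The log2 fold change was -0.87 ± 0.23 (0.549-fold), with an adjusted p of 0.0497 in edgeR's test, on 28 to 63 reads per library. It was rank 461 by p among 462 windows called, 1.38% of those tested, and 1 of 4 members was called. The call ended with DESeq2 size factors, under which 0 windows were called in place of 462, with 1 surrogate variable and with library totals (-0.42), and it was lost when any 1 of the 11 heart libraries other than acetate replicate 3 was left out. In control heart Cbfb had 8.07, 7.77, 9.33 and 6.49 CPM, between the other diets. High fibre against control gave -0.50 ± 0.22 (adjusted p = 0.0738), past the threshold without acetate replicate 1 (adjusted p = 0.0315) and with cyclic loess (-0.77).

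At Runx1 and Runx3 no diet difference passed in heart. Runx1 had 34.4, 37.3, 35.7 and 37.4 CPM in high fibre heart, 39.0, 38.0 and 38.8 CPM in acetate heart, and 35.8, 36.2, 39.1 and 38.0 CPM in control heart. The log2 fold change of high fibre over control was -0.04 with a 95% interval, computed without a prior count, of -0.25 to 0.18. Runx3 had 14.0, 11.95, 12.3 and 13.5 CPM in high fibre heart, 11.3, 14.5 and 13.3 CPM in acetate heart, and 11.3, 10.3, 12.2 and 10.7 CPM in control heart. High fibre over control gave 0.22 with an interval of -0.06 to 0.51, and acetate over control 0.25 with an interval of -0.06 to 0.57. With library totals Runx1 and Runx3 would be called in high fibre heart (0.66 and 0.90), where the median of all windows became 0.69.

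In spleen edgeR called 0 windows in every diet comparison, with 502, 872 and 823 at an unadjusted p under 0.05 for high fibre against control, acetate against control and high fibre against acetate. Acetate against control in heart also gave 0, with 840. The background there was 0% of windows called, and 0 of 4 members. In spleen the members' intervals for high fibre against control were -0.35 to 0.27 for Runx1, -0.38 to 1.48 for Runx2, -0.32 to 0.35 for Runx3 and -0.76 to 0.59 for Cbfb. The wide Runx2 interval went with single libraries of 8 to 36 reads on high fibre and 5 to 34 on control, where CPM were 0.953, 4.94, 6.42 and 1.82 on high fibre, and 0.752, 3.35, 2.76 and 2.08 on control.

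The difference between the tissues in the high fibre effect was called for 19 windows, 0.0559% of those tested, and for 0 of 4 members. The spleen effect minus the heart effect, without a prior count, was 0.02 for Runx2 (95% interval -0.86 to 0.90), -0.22 for Runx3 (-0.75 to 0.31) and 0.42 for Cbfb (-0.32 to 1.17). A called Runx2 difference in heart and none in spleen therefore does not show a difference between the tissues. For acetate, 0 windows were called, with 1553 at an unadjusted p under 0.05.

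**Figure D4:**
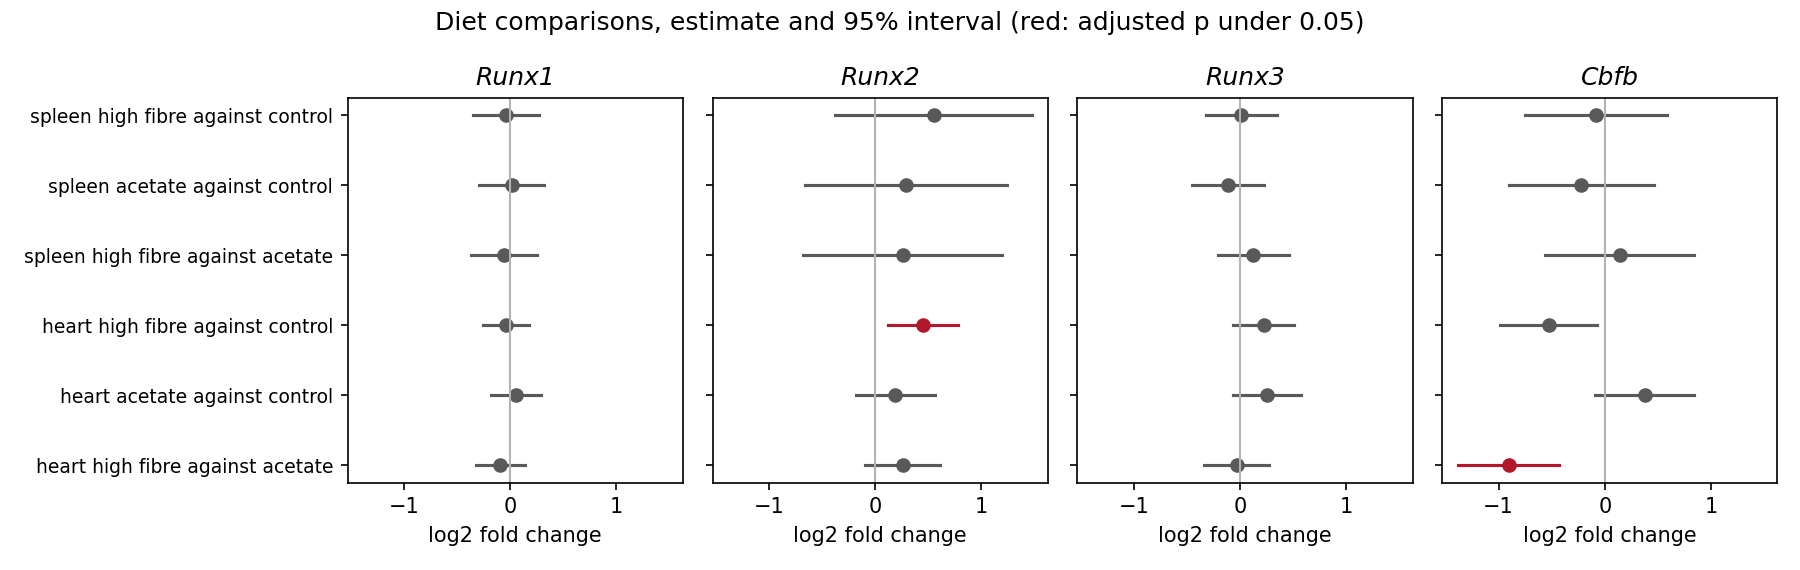
Log2 fold changes in each diet comparison for the 4 genes, with 95% intervals from edgeR without a prior count, so that points lie slightly further from 0 than the values in the text. The 2 red estimates, Runx2 in heart on high fibre against control and Cbfb in heart on high fibre against acetate, passed an adjusted p under 0.05, and the Runx2 intervals in spleen are the widest.

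Genes that work with Runx proteins were taken as 4 lists. In heart on high fibre against control, of 26 cofactors 2 were higher and 5 lower, of 26 blood transcription factor partners 5 were higher and 5 lower, of 29 blood and lymphocyte targets tested 1 was higher and 9 lower, and of 24 bone and cartilage genes tested 5 were higher and 1 lower. Medians were 0.05, -0.02, -0.125 and 0.23 in that order, beside 0.02 over all windows, where 12.6% were called higher and 13.6% lower. Among cofactors Prmt1, an arginine methyltransferase, had 11.1 ± 2.80 CPM in high fibre heart and 21.6 ± 2.61 CPM in control heart (log2 fold change -0.96, adjusted p = 0.00662), and Tle2, a Groucho corepressor, 48.8 ± 4.66 CPM and 71.1 ± 1.05 CPM (-0.54). Among partners, the E proteins Tcf12 and Tcf3 gave 0.60 and -0.51, in opposite directions.

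Of the blood and lymphocyte targets, Itgal, the alpha chain of the integrin LFA-1, had 38.2 ± 3.18 CPM in high fibre heart and 54.8 ± 5.17 CPM in control heart (-0.52). Of the bone genes, Twist1, a regulator of mesenchyme that restrains Runx2, had 10.3 ± 1.43 CPM in high fibre heart and 4.70 ± 0.53 CPM in control heart (1.076), while Alpl, the alkaline phosphatase of mineralising bone, had 93.5 ± 7.48 CPM in high fibre heart and 122.7 ± 8.79 CPM in control heart (-0.39). Each of these passed edgeR's test (SD, n = 4 each). In the same comparison 4 of 8 myeloid, 4 of 14 lymphocyte, 4 of 14 cardiomyocyte, 3 of 8 erythroid and 1 of 10 endothelial marker windows were lower, against 0, 2, 1, 1 and 0 higher in that order, and their part in the list counts was not tested. High fibre against acetate in heart called 2 cofactors, Prmt1 (-0.96) and Tle2 (-0.61), both lower, where 1.19% of windows were called lower. Their adjusted p in edgeR's test were 0.0488 and 0.0497, close to the threshold. Acetate heart had 22.95 ± 12.14 CPM at Prmt1 and 75.6 ± 26.3 CPM at Tle2 (SD, n = 3). With DESeq2 size factors 0 windows were called in this comparison. Of the partners and bone genes 0 were called, and the spleen and acetate against control comparisons called 0 list members.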

How the data were processed

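The deposited values are raw read counts per gene window in each library, 1 table for heart and 1 for spleen, which the authors made without normalisation; build GRCm38, BWA 0.7.10, bcl2fastq 2.19.1.403, edgeR 3.16.5 and featureCounts 1.5.1 are named in the submitters' processing notes. Windows are 3 kb at transcription starts; how they are centred, and how reads in overlapping windows or with several alignments were counted, is not given in the sources used here. The counts were tested as deposited in R 4.3.3 by edgeR 4.0.16, quasi-likelihood (TMM factors, filterByExpr at a minimum count of 10, prior count 2, Benjamini-Hochberg adjustment at 5% over all tested windows). Diets were fitted within a tissue, sharing 1 spread estimate over 3 diets, and tissue contrasts and differences between tissues over all 23 libraries. All 4 members passed the filter. The tests were checked on simulated data for high fibre against control. A planted 1.5-fold change was recovered in 38% of 50 heart windows and 30% of 50 spleen windows. A planted 2-fold change was recovered in 80% and 66%. The simulation called 160 of 33227 heart windows and 148 of 24536 spleen windows, against 8786 of 33562 and 0 of 24871 in the data. Planted windows were drawn over all levels, so the rates do not carry over to the tests of single members. DESeq2 1.42.0, sva 3.50.0 and limma 3.58.1 (cyclic loess) served the alternatives. Library totals of 4.12 to 9.87 M counts limit precision for windows with few reads, most of all Runx2 and Cbfb in spleen, and no input library is used. Groups came from the labels, and 0 library columns had identical values. The members and lists were chosen with earlier results of these data known. Named list genes were the 2 with the smallest p among those called, of which 1 is not reported here, and the neighbours were the nearest RefSeq genes on either side with a window; Supt3, the Runx2os windows and Gm10800 were named after their values were seen. Promoter sequences are from RefSeq, build GRCm38.p6.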

Additional observations from a re-analysis of the deposited data

How the results depend on the processing

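Values are log2 fold changes, or numbers of windows called, and where no cause is named it was not tested. Results not given here kept their direction and their side of the threshold under the alternatives run, and Runx1 with Runx3 over spleen libraries kept r at 0.82 to 0.90 with each library left out, a check added after seeing the data. Depth limits Cbfb and spleen Runx2 most.

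Library totals keep the Gm10800 share in the denominator. With them, spleen over heart on high fibre, acetate and control became 0.17, 0.74 and 0.84 for Runx1, -3.21, -2.58 and -2.51 for Runx2, 1.29, 1.73 and 2.15 for Runx3, and -1.29, -1.68 and -1.02 for Cbfb. In heart, high fibre against control became 0.66 for Runx1, 0.90 for Runx3 and 0.18 for Cbfb, and high fibre against acetate 0.35 for Runx1, 0.40 for Runx3 and -0.42 for Cbfb. In spleen, acetate against control became 0.088 for Runx3, and high fibre against acetate -0.046 for Runx3 and -0.039 for Cbfb. The tissue difference in the high fibre effect became -0.67 for Runx1, -0.70 for Runx2, -0.86 for Runx3 and -0.27 for Cbfb, and that in the acetate effect -0.072 for Runx2. In the high fibre difference Runx1 and Runx3 then passed the threshold, where the median of all windows became -0.672. Windows called became 24626 for heart high fibre against control, 1882 for heart high fibre against acetate, 1 for spleen high fibre against acetate and 6388 for the difference in the high fibre effect.

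With 1 surrogate variable, Runx2 gave 0.044 for heart high fibre against control, -0.092 for heart high fibre against acetate and -0.015 for spleen acetate against control, Runx3 gave 0.057 for spleen acetate against control and -0.00063 for spleen high fibre against acetate, and Cbfb gave -0.78 for heart high fibre against acetate. Windows called were then 230, 17 and 19 for heart high fibre against control, acetate against control and high fibre against acetate, and 25 and 7 for spleen acetate against control and high fibre against acetate. With cyclic loess, Cbfb gave -0.77 and Runx1 0.185 for heart high fibre against control, Runx1 0.129 for heart high fibre against acetate, and Runx2 -0.031 for the difference in the high fibre effect, with 4287 windows for heart high fibre against control and 1 for spleen acetate against control. DESeq2 size factors gave -0.87 for Cbfb in heart high fibre against acetate, with 0 windows, and -0.048 for Runx2 in the difference. The DESeq2 test gave 0.456 for Runx2 in heart high fibre against control, with 2516 windows for heart high fibre against acetate, 1 for spleen acetate against control and 110 for the difference. Without the filter on low counts Runx1 gave -0.036 for spleen acetate against control and 0.00022 for the difference in the high fibre effect, and Runx3 -0.009 for spleen high fibre against control, with 1256 windows for heart high fibre against acetate, 2 for spleen acetate against control and 1 for spleen high fibre against acetate.

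With the replicate block, Runx2 in heart high fibre against control was 0.443 and Cbfb in high fibre against acetate -0.767, both still called, with 2284 windows for heart high fibre against acetate, 1 for heart acetate against control and 1 for spleen acetate against control. The block by title number gave 1.2e-05 for Runx1 and 980 windows in the difference in the high fibre effect. Libraries with the same number correlated in their deviations by -0.078 to 0.604 in heart, -0.075 to 0.481 in spleen and -0.113 to 0.375 between the tissues. Of these pairs 5 of 10, 5 of 12 and 4 of 11 were over 0.1, all those of heart replicate 1 and spleen replicate 2 among them, and the labels do not say what the numbers mark, so whether they pair the samples is not settled and the fits without the block are reported.

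With each library left out in turn, heart high fibre against control spanned 0.343 to 0.591 for Runx2, -0.601 to -0.376 for Cbfb and 2495 to 14336 windows. Heart high fibre against acetate spanned -0.977 to -0.739 for Cbfb, -0.098 to 0.046 for Runx3 and 0 to 4536 windows, and heart acetate against control -0.018 to 0.366 for Runx2 and 0 to 684 windows. Spleen high fibre against control spanned -0.122 to 0.09 for Runx1, -0.111 to 0.212 for Runx3 and -0.385 to 0.082 for Cbfb. Spleen acetate against control spanned -0.192 to 0.144 for Runx1, -0.279 to 0.087 for Runx3 and 0 to 2 windows. Spleen high fibre against acetate spanned -0.14 to 0.151 for Runx1, -0.169 to 0.56 for Runx2, -0.179 to 0.288 for Cbfb and 0 to 3 windows. The difference in the high fibre effect spanned -0.111 to 0.153 for Runx1, -0.388 to 0.321 for Runx2, -0.345 to 0.019 for Runx3 and 0 to 602 windows, and that in the acetate effect -0.318 to 0.095 for Runx1 and -0.169 to 0.283 for Runx2. Spleen over heart on acetate spanned 1.443 to 1.809 for Runx1, and on high fibre -0.075 (without spleen high fibre replicate 3) to 0.35 for Cbfb, which changed direction.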
